A study of Arabidopsis thaliana with 12 samples.

Results

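This account covers 6 regulatory genes of the Arabidopsis thaliana root: STZ (AT1G27730, also called ZAT10), AT2G28710, BZIP61 (AT3G58120), WRKY53 (AT4G23810), WRKY22 (AT4G01250) and WRKY6 (AT1G62300). They are 6 of 13286 genes that could be named on the array, and each is represented by a single probe set that lists no other gene. They were chosen by their measured response to ATP, with STZ, WRKY22 and WRKY53 taken as genes that were higher in ATP, AT2G28710 and BZIP61 as genes that were lower, and WRKY6 as a gene that barely moved. The wild-type response of these genes is therefore given as a description, with no test. The same holds for each comparison that shares wild-type arrays with it. The mean difference in the mutant used no wild-type array and was tested. Its SE, interval and p came from a spread pooled over all groups, so wild-type arrays enter them. The test is therefore not fully separate from the choice of the genes.

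Transcription factors bind short DNA motifs and raise or lower the transcription of the genes beside them. WRKY factors, named for a conserved stretch of amino acids in their zinc-binding DNA-binding domain, are plant regulators that recognise the W-box motif and take part in defence, senescence and nutrient responses. C2H2 zinc finger proteins of the STZ type act mostly as repressors during salt, cold, drought and oxidative stress, and basic leucine zipper (bZIP) factors bind DNA as dimers. ATP released from damaged plant cells acts outside the cell as a signal. It is sensed by a lectin receptor kinase in the plasma membrane, and calcium and defence signalling follow.

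The arrays fell into 4 groups of 3 biological replicates: dorn1-1 roots in ATP, dorn1-1 roots in buffer, wild-type roots in ATP and wild-type roots in buffer. dorn1-1 is an allele made by chemical (EMS) mutagenesis in the Col-0 accession that affects the ATP-binding lectin receptor kinase, and the wild type was Col-0 carrying the calcium reporter aequorin. Whether dorn1-1 carried aequorin too is not given in the sources used here. Every replicate pooled 120 seedlings grown for 5 days and kept overnight in darkness in a solution of 10 mM CaCl2 with 2 mM MES. Root tissue was cut off 30 min after ATP or buffer. The dose of ATP is uncertain by a wide margin, since sample titles read 100 mM while the protocol text reads 100 µM.

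Values are log2 RMA signals, in which a difference of 1 is a 2-fold change. They compare arrays for a given gene and do not rank genes against each other. Median values per array lay between 6.07 and 6.17. Of the 13 root markers listed for the tissue check, only EXPA7, an expansin gene of root hairs, could be measured, and its mean was 6.28 and 6.56 in dorn1-1 ATP and buffer, and 6.34 and 6.78 in wild-type ATP and buffer. Of the 7 shoot markers, RCA, LHCB4.1 and PRK could be measured, and all 3 gave clear signal in these root samples. Their mean per array ranged from 10.63 to 11.27 in dorn1-1 ATP, from 9.09 to 11.89 in dorn1-1 buffer, from 11.08 to 11.98 in wild-type ATP and from 9.76 to 10.59 in wild-type buffer. The ATP minus buffer difference of this photosynthesis mean was 0.52 in dorn1-1 (exact permutation p = 0.6) and 1.34 in the wild type (exact permutation p = 0.1, the smallest that 3 arrays against 3 allow, both two-sided). The dorn1-1 difference was -0.17 without buffer replicate 2 and 1.23 without buffer replicate 1. In such bulk samples, fewer cells of a type and less RNA per cell cannot be told apart.

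STZ, a C2H2 zinc finger repressor known for salt tolerance, stood highest in wild-type ATP. Its log2 values were 8.63, 8.62 and 9.19 in dorn1-1 ATP, against 8.81, 8.83 and 8.95 in dorn1-1 buffer. They were 9.53, 9.99 and 9.62 in wild-type ATP, against 9.06, 8.88 and 8.50 in wild-type buffer. The 3 wild-type ATP arrays lay above the other 9, whose groups overlapped one another with means between 8.81 and 8.86. The ATP minus buffer difference was -0.05 (SE 0.19) in dorn1-1 and 0.90 (SE 0.19), or 1.87-fold, in the wild type. Leaving out 1 array at a time put the dorn1-1 difference between -0.24 (without ATP replicate 3) and 0.05 (without ATP replicate 2), and the wild-type one between 0.75 and 1.03.

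**Figure D1:**
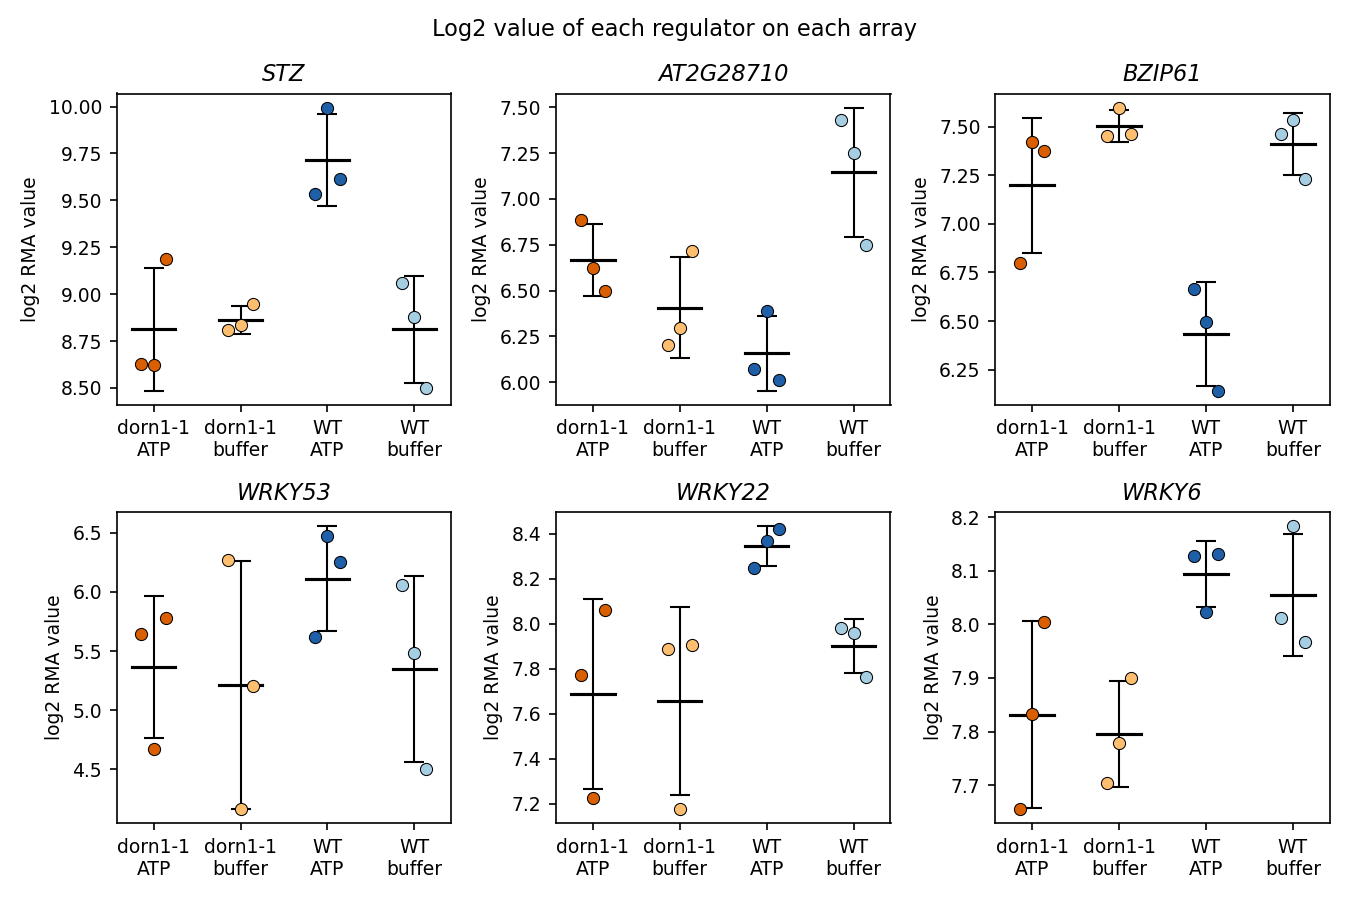
Log2 RMA value of each of the 6 regulators (vertical axis) in the 4 groups (horizontal axis), with 1 point per array, a bar at the group mean and whiskers of 1 SD (n = 3). STZ and WRKY22 were highest on the 3 wild-type ATP arrays, AT2G28710 had its highest mean in wild-type buffer, BZIP61 was lowest on the 3 wild-type ATP arrays, and the WRKY53 groups overlapped throughout.

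WRKY22, a factor downstream of a MAP kinase cascade triggered by bacterial flagellin, was likewise highest in wild-type roots given ATP, by a smaller margin. Its values were 7.77, 7.23 and 8.06 in dorn1-1 ATP, against 7.89, 7.18 and 7.91 in dorn1-1 buffer. They were 8.25, 8.37 and 8.42 in wild-type ATP, against 7.98, 7.96 and 7.76 in wild-type buffer. The wild-type ATP arrays were again the 3 highest of the 12, and the other groups overlapped. The second replicates of dorn1-1 in ATP and in buffer were the 2 lowest arrays. The mean difference was 0.03 (SE 0.22) in dorn1-1 and 0.44 (SE 0.22), or 1.36-fold, in the wild type. The dorn1-1 difference was -0.21 without buffer replicate 2 and 0.26 without ATP replicate 2.

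WRKY53, a regulator of leaf senescence and basal defence, was the most variable of the 6 between replicates, with an SD of 1.05 in dorn1-1 buffer and 0.79 in wild-type buffer (n = 3 each). Its values were 5.64, 4.67 and 5.78 in dorn1-1 ATP, against 6.27, 4.17 and 5.20 in dorn1-1 buffer. They were 5.62, 6.47 and 6.25 in wild-type ATP, against 6.06, 5.48 and 4.51 in wild-type buffer. Every pair of groups overlapped, so the data do not separate WRKY53 by genotype or by treatment. The wild-type mean was 0.76 higher in ATP with an SE of 0.51. This difference was 0.34 without wild-type buffer replicate 3 and 1.12 without wild-type buffer replicate 1. The dorn1-1 difference of 0.15 (SE 0.51) was -0.37 without buffer replicate 2 and 0.68 without buffer replicate 1.

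WRKY6, a factor active in senescence, defence and phosphate responses, was the steadiest under ATP and stood lower in the mutant. Its values were 7.66, 7.83 and 8.00 in dorn1-1 ATP, against 7.70, 7.78 and 7.90 in dorn1-1 buffer. They were 8.13, 8.02 and 8.13 in wild-type ATP, against 8.01, 8.18 and 7.97 in wild-type buffer. Both ATP comparisons overlapped, with differences of 0.04 in dorn1-1 (95% interval -0.21 to 0.28) and 0.04 in the wild type (95% interval -0.21 to 0.29). The sign of these small differences turned when 1 array was left out, to -0.05 in dorn1-1 without ATP replicate 3 and to -0.0034 in the wild type without buffer replicate 3. In each treatment the 3 dorn1-1 arrays lay below the 3 wild-type arrays, by 0.26 on average in ATP and in buffer (SE 0.11 each).

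AT2G28710, counted with the zinc finger genes and given no symbol in the annotation, had its highest mean in wild-type buffer. Its values were 6.88, 6.62 and 6.50 in dorn1-1 ATP, against 6.20, 6.30 and 6.72 in dorn1-1 buffer. They were 6.07, 6.39 and 6.01 in wild-type ATP, against 7.43, 7.25 and 6.75 in wild-type buffer. Wild-type buffer was highest without overlap with the dorn1-1 buffer or wild-type ATP arrays, and its lowest array (6.75) lay below the highest dorn1-1 ATP array (6.88). The ATP minus buffer difference was 0.26 (SE 0.20) in dorn1-1 and -0.99 (SE 0.20) in the wild type, a 1.98-fold lower level in wild-type ATP. With 1 array left out at a time, the dorn1-1 difference ran from 0.15 (without ATP replicate 1) to 0.42 (without buffer replicate 3), and the wild-type one from -1.18 to -0.84. The buffer level in dorn1-1 was already 0.74 below that of the wild type (SE 0.20), or 1.67-fold lower.

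BZIP61, a basic leucine zipper factor whose closest relative is BZIP34, differed from AT2G28710 in that both genotypes had alike buffer levels. Its values were 6.80, 7.42 and 7.38 in dorn1-1 ATP, against 7.45, 7.60 and 7.46 in dorn1-1 buffer. They were 6.66, 6.49 and 6.14 in wild-type ATP, against 7.46, 7.54 and 7.23 in wild-type buffer. The 3 wild-type ATP arrays were the lowest of the 12, and the 2 buffer groups overlapped. In dorn1-1 the ATP arrays also lay below the buffer arrays, narrowly for 2 of them and clearly for replicate 1. The difference was -0.31 (SE 0.18) in dorn1-1 and -0.98 (SE 0.18), or 1.97-fold lower, in the wild type. Without dorn1-1 ATP replicate 1 the dorn1-1 difference was -0.11.

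The ATP response of dorn1-1 was tested in a limma fit over all 22746 probe sets, and none of the 6 regulators passed. This fit pooled the spread over all groups, the wild-type ones included. With only the dorn1-1 groups in the fit, none of the 6 passed either. The limma adjusted p was 1.00 for each of them, and 0 had an unadjusted p under 0.05. BZIP61 had the lowest, with an unadjusted limma p of 0.112. Over the whole array 0% of probe sets passed in this comparison. The 95% intervals of the dorn1-1 differences ran from -0.46 to 0.36 for STZ, from -0.16 to 0.69 for AT2G28710, from -0.69 to 0.08 for BZIP61, from -0.97 to 1.27 for WRKY53 and from -0.45 to 0.51 for WRKY22. BZIP61 was the 1 of the 6 whose dorn1-1 groups did not overlap, against 5.5% of all probe sets.

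Set side by side, subtracting the wild-type ATP change from that of dorn1-1 gave -0.95 for STZ (SE 0.27), 1.25 for AT2G28710 (SE 0.28) and 0.67 for BZIP61 (SE 0.25). It gave -0.61 for WRKY53 (SE 0.73), -0.41 for WRKY22 (SE 0.31) and -0.0035 for WRKY6 (SE 0.16). The wild-type part of each difference chose the genes, so no test is given. In the wild type 4 of the 6 had ATP and buffer groups that did not overlap, with STZ and WRKY22 higher and AT2G28710 and BZIP61 lower, where 33.1% of all probe sets did not overlap. That count restates the choice of the genes.

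The genotypes were then set against each other within each treatment. In ATP, 5 of the 6 had groups that did not overlap, against 27% of all probe sets. The wild-type ATP arrays that chose the genes enter this count, so it cannot be read as an excess over that share. STZ was 0.90 lower in dorn1-1 (SE 0.19), WRKY22 was 0.66 lower (SE 0.22), BZIP61 was 0.77 higher (SE 0.18) and AT2G28710 was 0.51 higher (SE 0.20), with WRKY6 lower as given above. In buffer, 2 of the 6 did not overlap, AT2G28710 and WRKY6, both lower in dorn1-1, against 19.3% of all probe sets. The wild-type buffer arrays also entered the choice, so this count is likewise only a description. In buffer STZ and BZIP61 differed between the genotypes by 0.05 (SE 0.19) and 0.10 (SE 0.18).

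**Figure D2:**
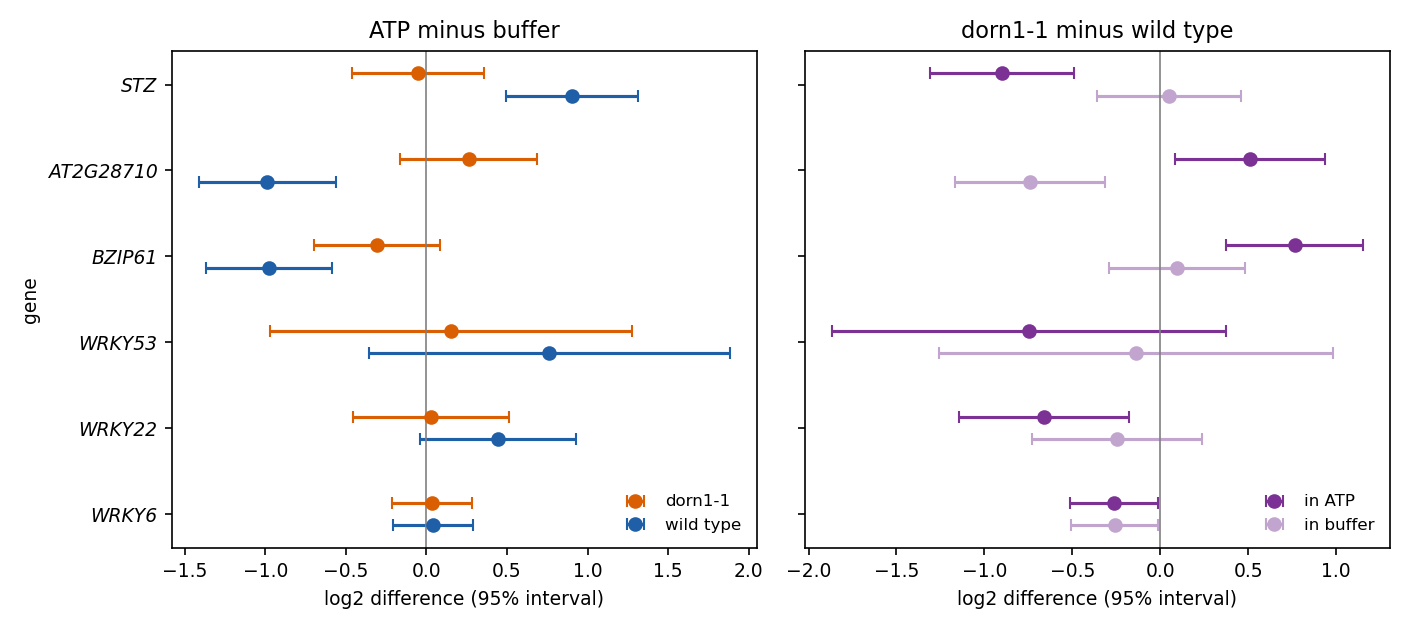
Log2 differences with 95% intervals from the limma fit (horizontal axis) for the 6 regulators (vertical axis), as ATP minus buffer in dorn1-1 and in the wild type (left) and as dorn1-1 minus wild type in ATP and in buffer (right). The dorn1-1 ATP differences lie between -0.31 and 0.26, and the wild-type ones between -0.99 and 0.90.

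Green-tissue transcripts were positively correlated with both WRKY53 and WRKY22 over the pooled arrays. The second dorn1-1 buffer array had the lowest photosynthesis mean of the 12 (9.09) and the lowest WRKY53 and WRKY22 values, and the first dorn1-1 buffer array had a high photosynthesis mean (11.89) and the second highest WRKY53 value. Over the 12 arrays WRKY53 had r = 0.79 with the photosynthesis mean (permutation p = 0.00209, adjusted 0.0125 over the 6 genes) and rho = 0.65 (permutation p = 0.0247, adjusted 0.105). Pooled permutations shuffle arrays across groups, so the wild-type ATP values that chose WRKY53 and WRKY22 enter the pooled p of both genes. Differences between groups can make these p small, so they cannot test the relation apart from the choice of the genes. After each group mean was removed, r was 0.76 (exact permutation p = 0.061, adjusted 0.215) and rho was 0.50 (exact permutation p = 0.199, adjusted 0.625). The pooled r for WRKY53 was 0.76 when the 2 arrays with the most extreme photosynthesis mean were left out.

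For WRKY22 the pooled r was 0.68 (permutation p = 0.0142, adjusted 0.0426) and rho was 0.54 (permutation p = 0.0747, adjusted 0.119). With group means removed r was 0.67 (exact permutation p = 0.0718, adjusted 0.215) and rho was 0.46 (exact permutation p = 0.208, adjusted 0.625). With those 2 arrays left out the pooled r was 0.42, so the pooled relation of WRKY22 rests in part on them. The relations within groups did not pass for either gene. With group means removed, r lay between -0.17 and 0.02 for STZ, AT2G28710, BZIP61 and WRKY6, with adjusted exact permutation p from 0.877 to 0.975.

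With the photosynthesis mean as a covariate in the fit, the wild-type difference of WRKY53 turned to -0.20, and that of WRKY22 was 0.10. No SE is given for this fit, and without the covariate the WRKY53 difference had an SE of 0.51. The wild-type differences of the other genes hardly moved, at 0.90 for STZ, -0.997 for AT2G28710, -0.91 for BZIP61 and 0.04 for WRKY6. Photosynthesis mean and treatment were partly confounded in the wild type, where all 3 ATP arrays had a higher photosynthesis mean than all 3 buffer arrays. The slope of the covariate came from the spread within groups, which was widest in dorn1-1 buffer, with an SD of 1.40. The SD was 0.33 in dorn1-1 ATP, 0.49 in wild-type ATP and 0.47 in wild-type buffer. The adjusted wild-type differences therefore lean on the dorn1-1 buffer arrays. Whether green tissue had a part in the WRKY values was not tested.

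**Figure D3:**
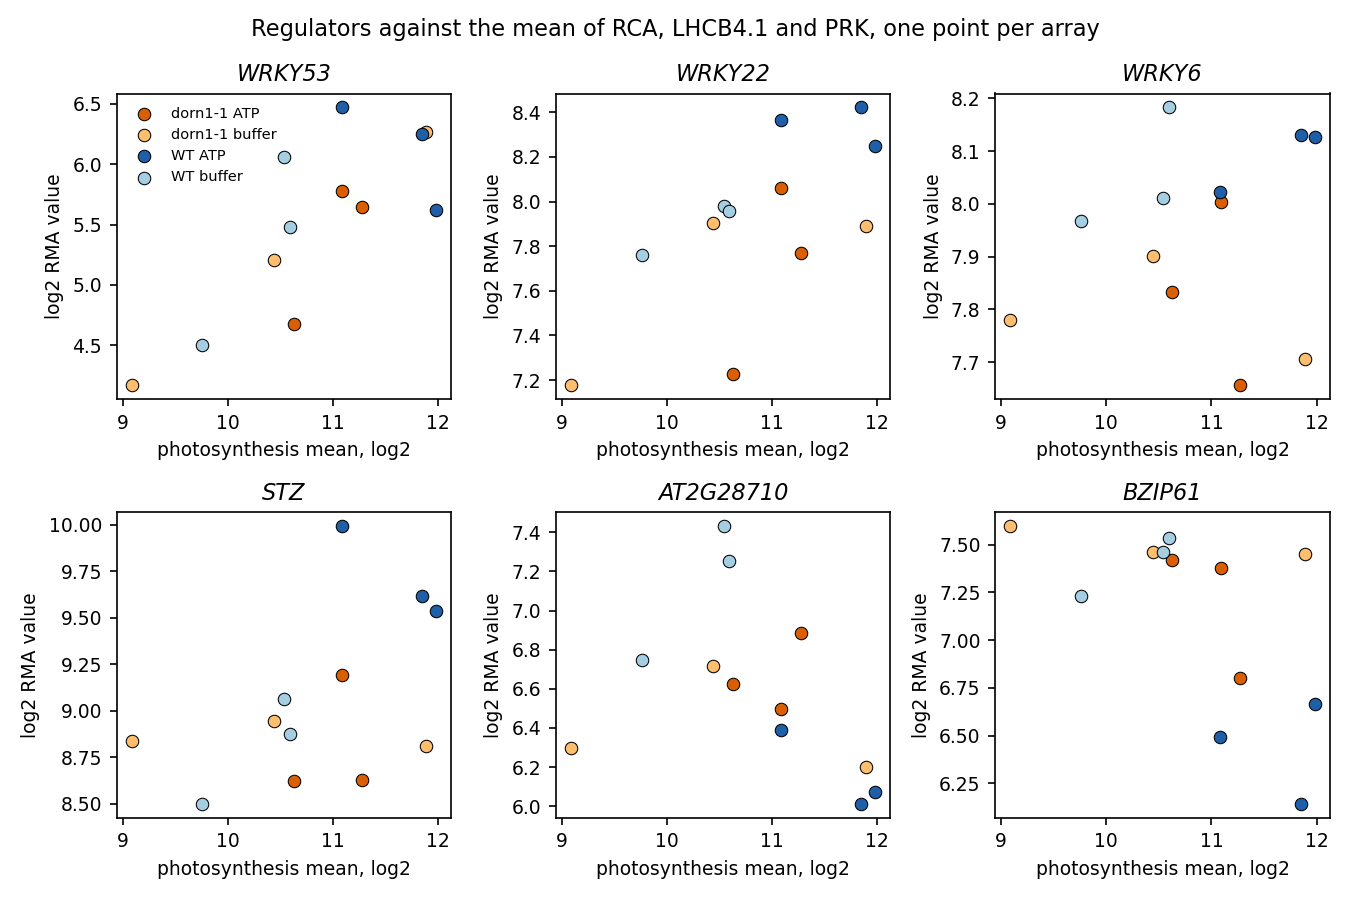
Log2 RMA value of each regulator (vertical axis) against the mean log2 value of RCA, LHCB4.1 and PRK (horizontal axis), with 1 point per array coloured by group (12 arrays). WRKY53 and WRKY22 climb with the photosynthesis mean over the pooled arrays (r = 0.79 and 0.68). The wild-type ATP arrays lie above all others for STZ and WRKY22 and below all others for BZIP61.

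Among themselves, the 6 genes formed 15 pairs, compared with group means removed so that the treatment and genotype differences did not enter. WRKY53 and WRKY22 varied together most closely, with r = 0.80 (exact permutation p = 0.00463, adjusted 0.0694 over the 15 pairs) and rho = 0.75 (exact permutation p = 0.0224, adjusted 0.336). Their r was 0.71 without the 2 arrays farthest from the median of WRKY53. By unadjusted exact permutation p of r this was the 1 pair under 0.05, and 0 pairs passed after adjustment. STZ had r = 0.55 with WRKY53 and 0.52 with WRKY22 (exact permutation p = 0.0694 and 0.107). AT2G28710 and BZIP61, both lower in wild-type ATP, had r = -0.0034 (exact permutation p = 0.992).

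The named probe sets with the most similar profile over the 12 arrays were found by Pearson r. It is given as a description without a p, since all profiles share the same arrays and their differences in photosynthesis mean. For STZ they were AT2G42360 (r = 0.97), AT1G64610 (0.95) and AT2G18690 (0.94). For WRKY22 they were AT1G73750 (0.96), AT2G36690 (0.94) and F2KP (0.94). AT1G73750 was also among the 3 most similar to WRKY22 after group means were removed (0.94).

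WRKY53 was most similar to UGT88A1 (r = 0.94), AT2G05540 (0.94) and AT3G07550 (0.93). With group means removed its closest match was LHCB4.2 (0.94), a light-harvesting antenna gene that is not in the photosynthesis mean. WRKY6 was most similar to CYP79A2 (0.94), which was again among its 3 closest with group means removed (0.89). BZIP61 was most similar to AT5G62340 (0.96), AT1G67430 (0.95) and AT1G32730 (0.94), and AT2G28710 to AT3G15470 (0.91), AT1G70500 (0.91) and scpl48 (0.90).

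The relatives of the 6 genes that were found by name on the array were 4 further WRKY genes and 22 further bZIP genes. The names searched gave no other C2H2 zinc finger gene. In the limma fit 0 of these 26 genes passed an adjusted p of 0.05 in any of the 5 comparisons. Of the 26, 3 had an unadjusted p under 0.05 in the wild-type ATP response, 1 in the dorn1-1 response, and 3 each in the difference between the responses, in the buffer comparison and in the ATP comparison of the genotypes. The 3 are 11.5% of the relatives and the 1 is 3.85%, against 22.2% of all probe sets in the wild-type ATP response, 2.30% in the dorn1-1 response, 6.97% in the difference, 12.9% in the buffer comparison and 21.7% in the ATP comparison. Over all probe sets the share that passed was 0.664% for the wild-type ATP response, 0.00879% for the difference between responses, 0.0659% for the genotypes in buffer and 6.68% for the genotypes in ATP.

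WRKY47 had values of 6.24, 6.47 and 6.64 in dorn1-1 ATP, against 6.16, 6.46 and 6.53 in dorn1-1 buffer. It had 6.30, 6.65 and 6.19 in wild-type ATP, against 6.81, 6.99 and 6.88 in wild-type buffer. Only its wild-type buffer arrays stood apart, above the other 9. This is the ordering of group means seen for AT2G28710, without passing the test (ATP minus buffer -0.51 in the wild type, SE 0.15, limma adjusted p = 0.107, and dorn1-1 minus wild type -0.51 in buffer, limma adjusted p = 0.215).

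ZAP1, also named WRKY1, and WRKY20 and WRKY42 had wild-type differences of -0.26, -0.15 and -0.06. All 4 further WRKY genes thus had lower means in wild-type ATP, as had 12561 of all 22746 probe sets. The median of the 4 was -0.20, against -0.03 over all probe sets. They are only the further WRKY genes found by name, so they do not stand for the family. In dorn1-1 their median was 0.05, against 0.02 over all probe sets. WRKY42, which acts with WRKY6 in phosphate homeostasis, was the 1 with an unadjusted p under 0.05 there, at 3.81, 3.90 and 3.58 in dorn1-1 ATP, against 3.27, 3.51 and 3.37 in dorn1-1 buffer. Its groups did not overlap, with a difference of 0.38 (limma adjusted p = 1.00). All these WRKY42 values lay well below the array medians of 6.07 to 6.17.

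The 22 bZIP genes had a median difference of -0.02 in dorn1-1 and -0.07 in the wild type. Of the 22, 17 were lower in wild-type ATP, as were 12561 of all 22746 probe sets. The highest in the wild type was BZIP60, a membrane-bound factor of the endoplasmic reticulum stress response. It stood at 9.42, 8.71 and 9.56 in dorn1-1 ATP and 9.42, 8.92 and 9.13 in dorn1-1 buffer. It stood at 9.72, 9.74 and 9.60 in wild-type ATP and 9.37, 9.22 and 9.19 in wild-type buffer, a difference of 0.42 (limma adjusted p = 0.231). The wild-type groups of BZIP60 did not overlap, as with STZ and WRKY22, and its second dorn1-1 replicates were likewise the 2 lowest arrays.

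HYH, a relative of the light-signalling factor HY5, followed with 0.28. The lowest were bZIP18 with -0.50 (limma adjusted p = 0.0993) and bZIP69 with -0.34, both with groups that did not overlap. BZIP34, the closest relative of BZIP61, went the other way in the wild type, with 0.24 (SE 0.14) and overlapping groups, at means of 3.30 in ATP and 3.06 in buffer. Both means lay well below the array medians, so the direction for BZIP34 is uncertain. BZIP53 had differences of -0.10 in dorn1-1 and -0.13 in the wild type. Across the 26 relatives, groups did not overlap for 1 gene (3.85%) in dorn1-1 and 7 genes (26.9%) in the wild type. The shares of all probe sets were 5.5% in dorn1-1 and 33.1% in the wild type.

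**Figure D4:**
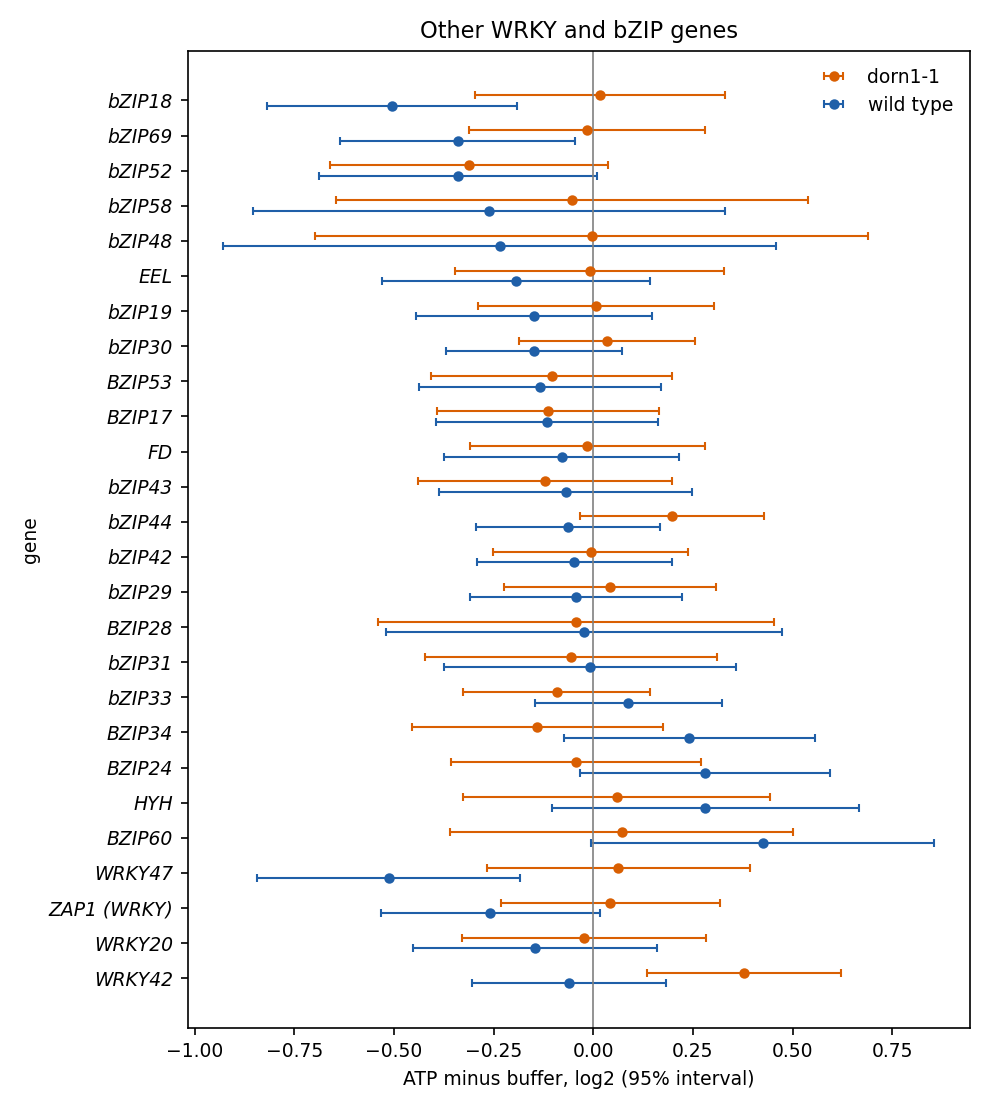
ATP minus buffer log2 differences with 95% intervals (horizontal axis) of the 22 bZIP and 4 WRKY genes (vertical axis) in dorn1-1 and in the wild type. The wild-type values run from -0.51 for WRKY47 to 0.42 for BZIP60, and 0 of the 26 passed in either genotype.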

How the data were processed

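Total RNA was labelled with biotin and read on one-colour arrays. The authors deposited log2 values, and the submitters' processing notes name RMA and affy. RMA corrects background, brings arrays to a common distribution and merges the probes of a set, so a shift shared by most transcripts is removed. Neither tool versions nor joint processing of the arrays is stated in the sources used here. The number of arrays limits the precision.

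Setting aside 64 controls, 22746 probe sets were fitted with limma 3.58.1 (R 4.3.3), with 4 group means over 12 arrays, empirical Bayes moderation and Benjamini-Hochberg adjustment in each of 5 contrasts at 0.05. The fit was tested on simulated data. Single values used two-sided exact permutation tests, within groups for relations with group means removed (1296 arrangements) and over 100000 resamples for pooled ones. Figures used matplotlib 3.10.9 in Python 3.11.15.

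Names came from the platform annotation, where 13513 probe sets list 1 gene and 503 list several, and 13436 of the 1-gene probe sets matched RefSeq (TAIR10.1). No probe set listing several genes lists a member. Related genes can share probes. The members and lists were chosen with earlier results of these data known. Named relatives were the WRKY, C2H2 and bZIP genes by symbol or synonym, but names such as ZAT, AZF, GBF and TGA were sought in symbols only. A gene with such a name only as a synonym could be missed. Values are given for those that passed (none did), for the 2 highest and 2 lowest wild-type changes of a family and for BZIP34, BZIP53 and BZIP60, with WRKY42 added after its values were seen. The 3 closest genes by r are named too. Promoter and protein motifs were not analysed here.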

Additional observations from a re-analysis of the deposited data

Results flagged for a closer look

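Of the 32 regulators compared, 2 had ATP arrays that all lay on one side of their buffer mean in dorn1-1 and all on the other side in the wild type. The share of all probe sets that did so was not counted, so the 2 cannot be called more than usual. AT2G28710 was 0.26 higher in dorn1-1 ATP and 0.99 lower in wild-type ATP (log2 change -0.99), so the responses differed by 1.25. The bZIP30 values (0.03 in dorn1-1 and -0.15 in the wild type) differed by 0.18. The difference was not tested for AT2G28710, since the wild-type response chose it, and bZIP30 did not pass the test of the difference over all probe sets.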

How the results depend on the processing

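The count of 0 called relatives was kept under each scaling, the 40th percentile filter, trend and robust moderation, the replicate block and the photosynthesis covariate. With array weights it was 7 for the wild-type ATP response, 3 for the genotypes in buffer and 1 for the genotypes in ATP. Of all 22746 probe sets, array weights called 6203, 2568 and 3067 in these comparisons. With only the groups compared, 3 relatives passed for the wild-type response (bZIP18, BZIP60 and WRKY47), beside 2506 of all probe sets. In the 12 fits that left out 1 array, the count of relatives ranged from 0 to 2 for the wild-type response and from 0 to 1 for the genotypes in ATP. The higher values came only without dorn1-1 buffer replicate 1, where bZIP18 passed in both and WRKY47 in the first. That fit called 2316 and 2643 of all probe sets in these comparisons. For the members in dorn1-1 the count was 0 in every fit. Of 264 member values under other settings, 262 stayed within 1 SD between replicates. The exceptions were the wild-type differences of WRKY53 (-0.20) and WRKY22 (0.10) with the photosynthesis covariate. All 360 values without 1 array stayed within that SD. Many of these values could not move. A difference between 2 groups does not use the arrays of the other groups. The filter, trend and robust moderation, the replicate block and the fit of only the groups compared also leave a mean difference unchanged.

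Whether replicate numbers pair the samples was not settled. Of 18 same-numbered pairs of arrays, 8 had deviations that correlated above 0.1 (median 0.03, range -0.28 to 0.56). Of 36 differently numbered pairs, 13 did (median -0.08, range -0.58 to 0.44). Their own number was the best match for 5 of 12 arrays. The replicate block gave 0 called relatives in each contrast and called 447 probe sets in place of 151 for the wild-type response, 24 in place of 15 for the genotypes in buffer and 1 in place of 2 for the difference. The 151 became 259 with cyclic loess, 228 with trend and robust moderation, 6203 with array weights, 2506 with only the groups compared and 78 with the covariate, and ranged from 6 without wild-type buffer replicate 2 to 2316 without dorn1-1 buffer replicate 1. Without 1 array, the 15 for the genotypes in buffer ranged from 2 without wild-type buffer replicate 1 to 315 without dorn1-1 buffer replicate 1, and the 1519 for the genotypes in ATP from 272 without wild-type ATP replicate 3 to 2643 without dorn1-1 buffer replicate 1. The 0 for the dorn1-1 response became 12 without that same buffer array. No other probe set lists a member, so that alternative could not be run.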
